A study of Mus musculus with 20 samples.

Results

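The transcripts of 8 genes made mainly by neutrophils were followed in the heart apex of 20 mice. The genes are S100a8, S100a9, Lcn2, Ngp, Camp, Ltf, Retnlg and Csf3r, and they were taken by symbol from a table of 25308 genes; all 8 were found, each as 1 row. They were chosen by their counts in these same mice, which separated the groups in the second sequencing run and not in the first, so their values are given as a description without a test. Poly(A) RNA of each mouse was sequenced as 1 library.

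The mice fell into 3 groups. AL mice (9) were λS-DH mice, which carry the gene of a human λ light chain at their Ig kappa locus, and were induced, that is, injected with the variable domain of that light chain, after which amyloid was deposited. LS mice (4) had the same genotype, were not induced and had no deposits. Ctrl mice (7) were DH mice without the human gene. All 3 groups carry the DH-LMP2A alleles, with which B cells mature into plasma cells that lack immunoglobulin heavy chains and release free light chains. The form injected, the age and the sex of each mouse are not in the labels used here. The first run held 7 AL, 4 LS and 4 Ctrl mice, and the second run 2 AL and 3 Ctrl mice and no LS mouse.

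Neutrophils are short-lived white blood cells made in the bone marrow, and a heart without inflammation holds few of them, mostly in its blood. Their granule proteins are transcribed in waves as the cells mature: azurophil granules first (Mpo, Elane), then specific granules (Ngp, Camp, Ltf, Lcn2), then gelatinase granules (Mmp8, Mmp9). S100a8 and S100a9, the 2 chains of the calcium-binding protein calprotectin, and Retnlg, a resistin-like secreted protein, are still transcribed in circulating cells. Csf3r is the receptor for granulocyte colony-stimulating factor. Lcn2, an iron-siderophore binding protein, and S100a8 and S100a9 are also made by other cells, among them epithelium, macrophages and liver cells. In RNA of whole tissue, fewer neutrophils and less RNA per neutrophil cannot be told apart.

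The genes lie on 5 chromosomes of GRCm38. S100a8 (chr3:90668978-90670035, plus strand) and S100a9 (chr3:90692632-90695721, minus strand) are neighbours 22.6 kb apart. Camp (chr9:109847379-109849617, minus strand), Ngp (chr9:110419747-110423012, plus strand) and Ltf (chr9:111019271-111042767, plus strand) lie along 1 stretch of chromosome 9, with 570.0 kb between Camp and Ngp and 596.0 kb between Ngp and Ltf. Lcn2 (chr2:32384633-32388252, minus strand), Retnlg (chr16:48872621-48874496, plus strand) and Csf3r (chr4:126024550-126044440, plus strand) stand alone. The 250 bases before the transcription start are printed for 5 genes because their counts went together in pairs (S100a8 with S100a9, Ngp with Ltf) or apart from the rest (Lcn2). The sequences are from RefSeq on GRCm38.p6 and end at the RefSeq start, which differs from the GENCODE gene end given above for 4 of them: the window of Lcn2 lies inside the GENCODE gene, and those of S100a8, Ngp and Ltf run into theirs. Capitals mark letters searched on both strands: TTNNGCAA, a core of the motif of C/EBP factors, which drive granulocyte maturation; GAGGAAG, a core of that of PU.1, a factor of myeloid cells; and TATAAA, the TATA box. No marked stretches overlap.

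S100a8, chr3:90668821-90669070, plus strand: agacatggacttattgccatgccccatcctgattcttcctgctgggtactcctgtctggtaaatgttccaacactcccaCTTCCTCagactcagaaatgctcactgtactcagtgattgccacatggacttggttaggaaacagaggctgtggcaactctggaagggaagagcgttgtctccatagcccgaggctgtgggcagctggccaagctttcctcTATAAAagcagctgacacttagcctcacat

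S100a9, chr3:90695722-90695971, minus strand: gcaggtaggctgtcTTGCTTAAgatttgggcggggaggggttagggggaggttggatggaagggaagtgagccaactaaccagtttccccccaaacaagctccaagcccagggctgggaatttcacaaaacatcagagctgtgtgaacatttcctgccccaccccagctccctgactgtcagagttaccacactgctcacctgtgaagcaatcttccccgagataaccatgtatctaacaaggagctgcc

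Lcn2, chr2:32387740-32387989, minus strand: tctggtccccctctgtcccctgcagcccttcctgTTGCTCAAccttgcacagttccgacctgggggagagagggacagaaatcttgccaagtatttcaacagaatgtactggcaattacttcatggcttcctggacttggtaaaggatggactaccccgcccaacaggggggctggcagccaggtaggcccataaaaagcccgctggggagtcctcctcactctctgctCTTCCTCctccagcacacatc

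Ngp, chr9:110419558-110419807, plus strand: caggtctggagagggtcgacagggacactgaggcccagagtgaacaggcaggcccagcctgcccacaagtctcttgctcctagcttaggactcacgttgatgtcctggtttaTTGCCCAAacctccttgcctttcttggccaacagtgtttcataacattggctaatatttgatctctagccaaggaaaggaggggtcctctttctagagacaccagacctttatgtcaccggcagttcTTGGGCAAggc

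Ltf, chr9:111019042-111019291, plus strand: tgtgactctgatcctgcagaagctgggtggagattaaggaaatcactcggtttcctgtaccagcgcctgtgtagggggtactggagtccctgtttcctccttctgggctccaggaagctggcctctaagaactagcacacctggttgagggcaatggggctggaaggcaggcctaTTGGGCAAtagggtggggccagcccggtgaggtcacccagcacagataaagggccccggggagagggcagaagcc

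The C/EBP letters stood in S100a9, Lcn2, Ltf, Retnlg and Ngp, where there were 2 matches, and in 9.56% of 32851 mouse promoters of the same length. The PU.1 letters stood in S100a8, Lcn2 and Csf3r, and in 10.6% of all promoters. The TATA letters stood in S100a8, and in 12.4% of all. In Ngp, the matches lay 138 to 131 and 11 to 4 bases before the start, and in Ltf the match lay 75 to 68 bases before it. Camp held none of these letters. A match describes the sequence and shows no binding.

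The 2 runs differed in depth. Total counts lay between 43993277 and 62668146 per mouse in the first run and between 7867642 and 11794615 in the second. A floor of 3 counts corresponded to 0.0479 to 0.0682 CPM (counts per 1000000 counts of the library) in the first run and to 0.254 to 0.381 CPM in the second, and it covers counting error only. The CPM given here were scaled by TMM, the trimmed mean of M values. The summed level of 10 cardiomyocyte genes was 60700 to 70700 CPM in AL mice of the first run, below the 71200 to 78700 CPM of Ctrl and 74500 to 83100 CPM of LS mice, and in the second run it was 70800 and 90500 CPM in AL and 83800 to 90700 CPM in Ctrl mice. Mitochondrial transcripts took 29.4% to 37.1% of the counts in the first run and 18.3% to 30.4% in the second, where AL9 was lowest and had the highest TMM factor (1.299). Xist, transcribed from the inactive X chromosome, was over 100 CPM in 3 of 7 AL, 2 of 4 LS and 3 of 4 Ctrl mice of the first run and in 0 of 5 mice of the second, so the runs also differ in sex.

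In the second run, both AL mice lay above all 3 Ctrl mice for 8 of 8 genes. In the first run this held for 0 of 8 genes, and for 7 of 8 the mean of the 7 AL mice was below that of the 4 Ctrl mice. Over the 14478 genes tested, both AL mice lay above all Ctrl mice of the second run for 14.0%, and all 7 AL mice lay above all Ctrl mice of the first run for 5.69%. These patterns chose the genes, so nothing is read from the counts.

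**Figure D1:**
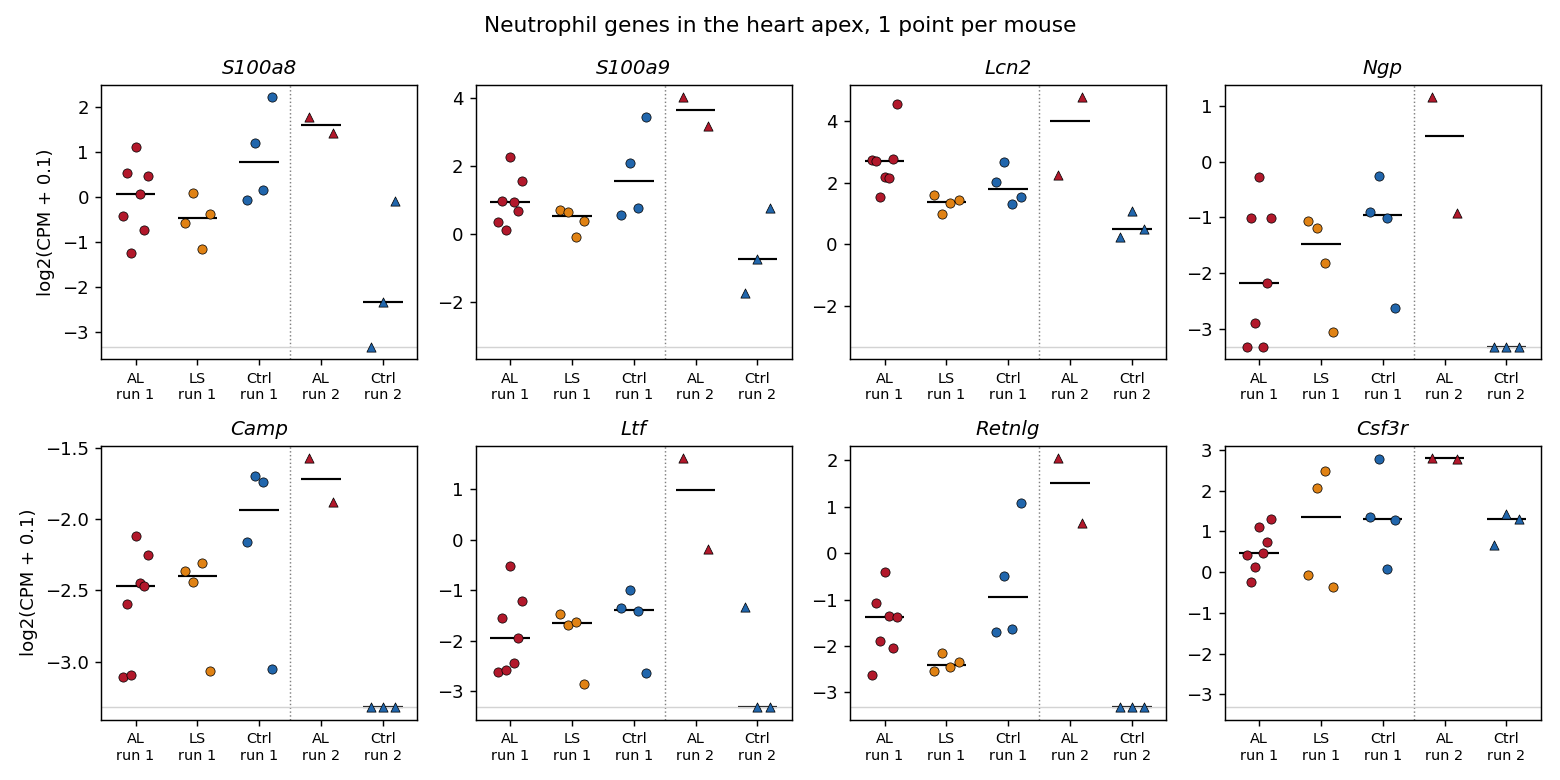
Level of each gene in each mouse as log2(CPM + 0.1), with AL (red), LS (orange) and Ctrl (blue) mice of the first run as circles and those of the second run, right of the dotted line, as triangles. Black bars are medians and the grey line is a CPM of 0. The second-run AL mice sit above the second-run Ctrl mice in all 8 panels, while the first-run groups overlap in each panel except LS and Ctrl mice for Retnlg.

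S100a8 and S100a9 encode the 2 chains of calprotectin, the most abundant protein of the neutrophil cytoplasm. For S100a9, the second-run AL mice had 137 and 105 counts (16.2 and 9.03 CPM), and the Ctrl mice had 2, 5 and 21 counts (0.197, 0.498 and 1.61 CPM). Both AL mice of the second run were above every mouse of the first run except Ctrl4, which lay between them. In the first run, S100a9 ranged from 0.979 to 4.72 CPM in AL mice (median 1.84), was 1.54, 1.47, 0.835 and 1.21 CPM in LS1 to LS4, and was 1.37, 4.16, 1.60 and 10.8 CPM in Ctrl1 to Ctrl4. The groups overlapped, and Ctrl4 alone, with 529 counts, was above all AL mice of its run.

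S100a8 followed S100a9. Its second-run counts were 28 and 30 in AL mice (3.32 and 2.58 CPM) and 0, 1 and 11 in Ctrl mice (0, 0.0996 and 0.845 CPM). Among the first-run mice it ranged from 0.321 to 2.06 CPM in AL mice (median 0.942), was 0.567, 0.968, 0.346 and 0.674 CPM in LS1 to LS4, and was 0.850, 2.21, 1.02 and 4.54 CPM in Ctrl1 to Ctrl4. Ctrl2 and Ctrl4 were above all first-run AL mice, and 3 of the 4 Ctrl mice were above all LS mice. The log2 fold change (log2FC) of AL against Ctrl was -1.09 ± 0.496 (SE) for S100a8 and -1.07 ± 0.508 for S100a9 in the first run, and 3.12 ± 0.966 and 4.0 ± 0.684 in the second.

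Retnlg encodes a resistin-like protein of neutrophils and was at 0 in every second-run Ctrl mouse. Its counts were 34 and 17 in the AL mice (4.03 and 1.46 CPM) and 0 in each of the 3 Ctrl mice of that run. The AL rate was 31.4-fold that of the floor of 3 counts over the Ctrl group, which is no lower bound. The first-run counts were 4, 17, 10, 35, 14, 7 and 13 in AL1 to AL7, 3, 6, 4 and 5 in LS1 to LS4 and 10, 32, 9 and 99 in Ctrl1 to Ctrl4. All 4 LS mice (0.0709 to 0.126 CPM) were below all 4 Ctrl mice (0.207 to 2.01 CPM), which was the case for 1 of the 8 genes and for 2.22% of all genes. AL mice overlapped with both, and 6 of 7 were above all LS mice.

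Ngp, Camp and Ltf encode proteins of the specific granules: neutrophilic granule protein, the antimicrobial peptide cathelicidin and the iron-binding lactoferrin. Their counts were low in every group. Ngp had 18 and 5 counts in the second-run AL mice and 0 in all 3 Ctrl mice. Its AL rate was 14.2-fold that of the floor over the Ctrl group, which is no lower bound. Ltf had 25 and 9 counts in the AL mice and 3, 0 and 0 in the Ctrl mice, a ratio of rates of 21.0 with an exact interval of 6.59 to 107.0 at 95%, for counting error only. Camp had 2 counts in each AL mouse and 0 in each Ctrl mouse, and both AL mice were at or under the floor, so its contrast was not detectable at this depth.

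The 3 granule genes overlapped between all groups of the first run. Ngp had 0, 18, 2, 39, 0, 6 and 18 counts in AL1 to AL7, 16, 16, 9 and 1 in LS1 to LS4 and 21, 39, 16 and 3 in Ctrl1 to Ctrl4. AL1 and AL5 were at 0 although their libraries were several times as deep as those of the second-run Ctrl mice. Ltf lay between 4 and 32 counts in AL mice, 2 and 11 in LS mice and 3 and 21 in Ctrl mice. Camp lay between 1 and 7, 1 and 5, and 1 and 11 counts. AL4 and Ctrl2 were the highest of their groups in all 3 genes, and LS4 and Ctrl4 were the lowest of theirs.

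Lcn2 was the only one of the 8 with a higher AL mean in both runs. In the second run it had 39 and 314 counts in AL mice (4.62 and 27.0 CPM) and 11, 20 and 17 in Ctrl mice (1.08, 1.99 and 1.31 CPM). Its first-run level ranged from 2.79 to 23.1 CPM in AL mice (median 6.41), was 2.91, 1.87, 2.40 and 2.58 CPM in LS1 to LS4, and was 3.92, 6.2, 2.37 and 2.81 CPM in Ctrl1 to Ctrl4. AL7 and AL9 stood far above the other AL mice, 6 of 7 first-run AL mice were above all LS mice, and 4 of 7 were above all Ctrl mice. The log2FC of AL against Ctrl was 1.01 ± 0.479 (SE) in the first run and 3.51 ± 0.715 in the second.

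Lcn2 is also an acute phase gene, and Saa3, an acute phase gene expressed outside the liver as well, reached 23.0 CPM in AL7 and 5.68 CPM in AL9, the same mice in which Lcn2 was highest, against at most 0.427 CPM in any Ctrl mouse. Saa3 rose in AL against Ctrl mice over both runs (log2FC 3.73, adjusted p = 0.0226, quasi-likelihood test of edgeR, Benjamini-Hochberg adjusted). That call was lost without AL7 or AL9, with a lowest log2FC of 1.75. Of the 9 acute phase genes tested, Lbp rose as well, and Crp, Hpx, Saa1 and Saa4 fell. Of all genes, 4.1% were called higher and 3.7% lower. Within the first run Saa3 was not called (3.41, adjusted p = 0.0837, same test by edgeR), Lbp rose (0.97) and Crp (-4.38), Hpx (-4.32), Itih4 (-1.59), Saa1 (-3.62) and Saa4 (-5.48) fell. In that run, 3.81% of all genes were called higher and 4% lower. The fall of Saa1 over both runs was lost without Ctrl3 and that of Itih4 in the first run without Ctrl1 or Ctrl3. The summed hepatocyte genes were 3.68 to 39.3 CPM in AL, 7.51 to 194.0 in LS and 46 to 302.0 in Ctrl mice of the first run and 2.85 to 6.27 CPM in all mice of the second. Their part in the levels of Lcn2 was not tested.

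Csf3r, the cytokine receptor, had the smallest second-run contrast of the 5 genes with counts in Ctrl mice of that run, with a ratio of AL to Ctrl rates of 3.52, against 8.94 for S100a8, the next. The second-run counts were 58 and 79 in AL mice (6.87 and 6.80 CPM) and 15, 26 and 31 in Ctrl mice (1.48, 2.59 and 2.38 CPM). Its first-run level ranged from 0.744 to 2.39 CPM in AL mice (median 1.30), was 0.850, 4.08, 5.46 and 0.674 CPM in LS1 to LS4, and was 2.47, 6.75, 0.947 and 2.32 CPM in Ctrl1 to Ctrl4. LS2, LS3, Ctrl1 and Ctrl2 were above all first-run AL mice. The log2FC of AL against Ctrl was -1.09 ± 0.557 (SE) in the first run and 1.71 ± 0.343 in the second.

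The low counts of the second-run Ctrl mice were set against depth. At the level of the first-run Ctrl mice, the 3 libraries together would have given 45.4 (lowest mouse), 95.7 (median) and 357.0 (highest) counts of S100a9, and 28 were observed (exact Poisson interval 18.6 to 40.5 at 95%). For S100a8, 28.3, 53.6 and 151.0 counts would have been given and 12 were observed (6.2 to 21.0). For Lcn2, 78.7 counts would have been given at the lowest level and 48 were observed (35.4 to 63.6). For Retnlg, 6.89 counts would have been given at the lowest level and none was observed (0 to 3.69). For the 3 libraries summed, the intervals of these 4 genes, which hold counting error and not the spread between mice, lay below the level of the lowest first-run Ctrl mouse. Ctrl7 taken alone did not lie below it for the S100 genes: it had 21 counts of S100a9, against 17.8 at that level, and 11 of S100a8, against 11.1.

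The intervals of the other 4 genes reached that level. The lowest first-run Ctrl level of Ngp would have given 2.03 counts and that of Camp 0.676 counts, both inside the interval of a count of 0, which ends at 3.69. At the median level, Ngp would have given 13.9 counts and Camp 5.39. Ltf had 3 counts (0.619 to 8.77), against 2.03 at the lowest and 9.37 at the median level. Csf3r had 72 counts (56.3 to 90.7), against 31.4 at the lowest and 79.4 at the median level. Thus the zeros of Ngp and Camp were within what these depths give at the lowest first-run Ctrl level. Those of Retnlg were below it for the 3 libraries summed, and not for any of these mice taken alone. At that level Ctrl5, Ctrl6 and Ctrl7 would have given 2.11, 2.08 and 2.7 counts of Retnlg, inside the interval of a count of 0. The genes were chosen by counts of these same mice, so nothing is read from which genes lay below that level.

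**Figure D2:**
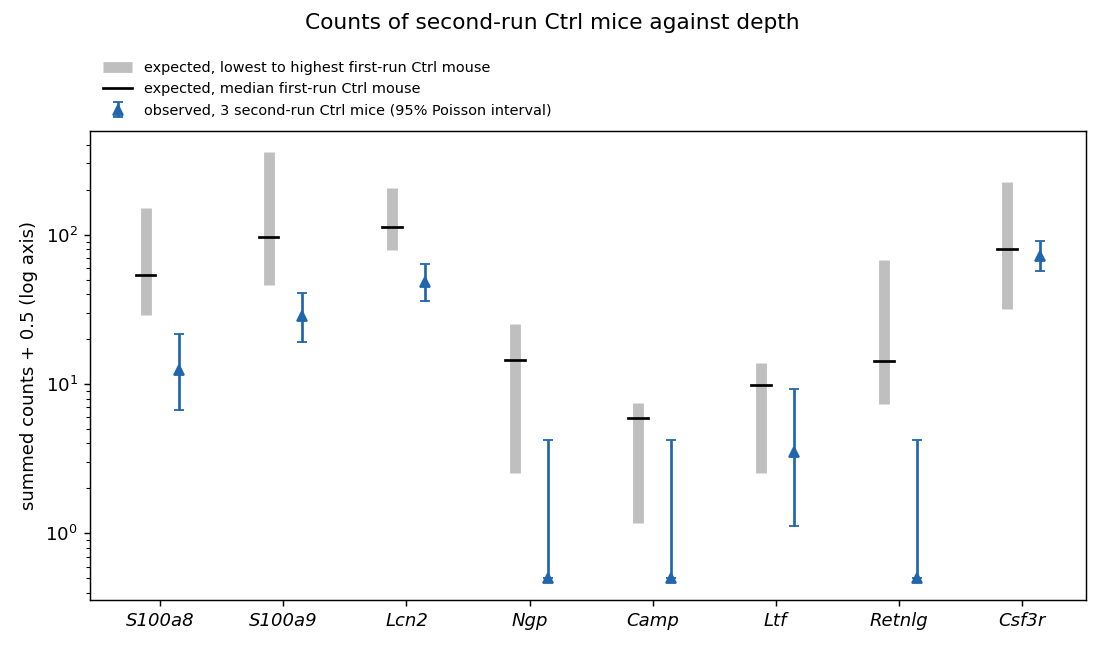
Summed counts of each gene in the 3 second-run Ctrl mice (triangles, with exact 95% Poisson intervals) beside the counts that the levels of the first-run Ctrl mice would give at the same depth (grey bars from the lowest to the highest mouse, black line at the median), on a log axis after adding 0.5. Triangles with their intervals lie below the bars for S100a8, S100a9, Lcn2 and Retnlg, and meet them for Ngp, Camp, Ltf and Csf3r.

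Each group was also set against itself between the runs. The mean of the second-run AL mice was 2.04 to 9.70 times that of the first-run AL mice, lowest for Lcn2 and highest for Retnlg. Both second-run AL mice were above all 7 first-run AL mice for 6 of 8 genes, as for 16.8% of all genes. Ngp and Lcn2 were the other two, each with 1 of the 2 mice inside the first-run range. The mean of the second-run Ctrl mice was below that of the first-run Ctrl mice for all 8 genes, and all 3 mice were below all 4 for 5 of them (S100a8, Lcn2, Ngp, Camp and Retnlg), as for 19.8% of all genes. The shift of Csf3r in Ctrl mice was the smallest, with a ratio of 0.689. Run and depth cannot be told apart here. Mice with Xist under 100 CPM were in both runs, and the part of sex in these shifts was not tested. For S100a9, such first-run mice had 1.185, 1.84, 1.51 and 2.83 CPM (AL1, AL5, AL6 and AL7) and 10.8 CPM (Ctrl4). The second-run mice had 16.2 and 9.03 CPM in AL and 0.197 to 1.61 CPM in Ctrl.

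A model with 1 term for the run gave 1 AL effect for both runs. The median log2FC of the 8 genes for AL against Ctrl over both runs was 0.07, beside 0.01 over all genes, and 4 of 8 values were positive. It was -1.01 in the first run and 4.10 in the second, beside 0.01 and 0.04 over all genes. The second-run median includes fitted values of Ngp, Camp and Retnlg, whose Ctrl mice were at 0, and its size therefore depends on the prior of the fit. Leaving out AL8 turned the both-run median to -0.27, and leaving out Ctrl4 raised it to 0.61. Without Ctrl4 the first-run median was -0.49, and without Ctrl2 it was -0.52.

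Over both runs the log2FC of Lcn2 for AL against Ctrl was 1.67 ± 0.483 (SE). The AL effect on S100a9 differed between the runs by a log2 value of 5.03 ± 1.08. That difference chose the genes, and nothing is read from it.

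The first run allowed the comparison of AL with LS mice, which share the genotype. The mean was higher in AL than LS mice for 6 of 8 genes, with a median log2FC of 0.48, beside 0.02 over all genes. The log2FC was 1.67 ± 0.498 (SE) for Lcn2, 1.57 ± 0.737 for Retnlg and -0.91 ± 0.559 for Csf3r. None of the 8 separated all AL from all LS mice, beside 8.94% of all genes for AL above LS. Leaving out AL4 lowered the median to 0.09.

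The mean was lower in LS than in Ctrl mice for 8 of 8 genes in the first run, while the mice overlapped for all except Retnlg. The median log2FC was -0.87, beside -0.01 over all genes, of which 48.3% had a positive value. The log2FC was -3.00 ± 0.788 for Retnlg, -1.83 ± 0.609 for S100a9 and -1.76 ± 0.595 for S100a8. Csf3r was the least negative, at -0.19 ± 0.637. Without Ctrl2 the median was -0.49. These comparisons share the 4 Ctrl and the 4 LS mice with those above.

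The 8 genes did not vary as 1 unit between mice. Over the 20 mice, Spearman's rho of the 28 pairs lay between 0.111 and 0.932 (median 0.552), and over the 15 first-run mice between -0.0321 and 0.929 (median 0.388). The closest pairs in the first run were Ngp with Ltf (0.929), Camp with Ltf (0.893), S100a8 with S100a9 (0.886), Ngp with Camp (0.865) and S100a9 with Retnlg (0.846). Lcn2 and Csf3r stood apart, with 0.0214 between them. These values describe mice that share group and run, and counts of Camp and Ngp near 0 limit them.

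The split was plain in single mice. Ctrl4 had 752 counts of S100a8 and S100a9 together and 7 of Ngp, Ltf and Camp, a ratio of 107.0. In the 17 other mice with any granule count the ratio lay between 0.667 and 24.5. Ctrl2 and AL4 had 335 and 362 counts of the S100 genes with 71 and 78 of the granule genes. Retnlg went with the S100 genes in Ctrl4 (99 counts). Ctrl6 and Ctrl7 had no granule counts with 6 and 32 S100 counts.

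**Figure D3:**
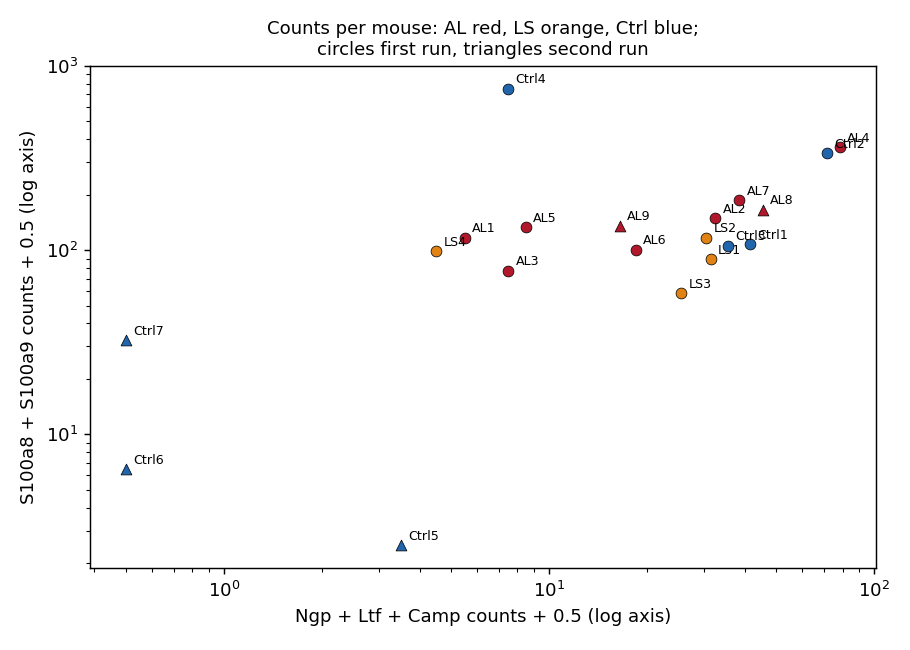
Summed S100a8 and S100a9 counts against summed Ngp, Ltf and Camp counts per mouse, both on log axes after adding 0.5, with AL (red), LS (orange) and Ctrl (blue) mice of the first run as circles and of the second run as triangles. Ctrl4 stands at 752 S100 counts with 7 granule counts, while Ctrl2 and AL4, next in S100 counts, have 71 and 78 granule counts.

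Other genes of neutrophils were read from 4 lists of 44 genes, of which 24 passed the filter over both runs. For AL against Ctrl over both runs 3 rose and none fell, beside 7.8% of all genes called and 4.1% called higher, with a median log2FC of 0.56. They were Chil3, a chitinase-like protein of neutrophils and macrophages (2.46, adjusted p = 0.0274, edgeR's quasi-likelihood test), Padi4, which citrullinates histones (2.08, adjusted p = 0.0409, same test by edgeR), and Slfn4, an interferon-regulated myeloid gene (1.78, adjusted p = 0.00778, same test by edgeR). Slfn4 kept its call without any 1 mouse. Chil3 lost it without AL7, Ctrl4, Ctrl5 or Ctrl6, and Padi4 without 8 of the 20 mice in turn.

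Within the first run, 1 of 22 tested was called for AL against Ctrl, beside 7.82% of all genes called and 4% called lower: Wfdc21, a secreted antiprotease-like gene, fell (-2.52, adjusted p = 0.0488, edgeR's quasi-likelihood test), a call lost without 11 of the 15 mice in turn. The median was -0.02. For AL against LS, 6 of 22 rose, beside 7.94% of all genes called higher: Slfn4 (3.44), Fpr1, the formyl peptide receptor (2.63), Chil3 (2.51), Clec4d, a C-type lectin of myeloid cells (2.08), Pglyrp1, a peptidoglycan-binding granule protein (1.05), and Hdc, which makes histamine (0.70). Slfn4 was 0.355 to 3.36 CPM in the 7 AL mice and 0.0473 to 0.295 CPM in the 4 LS mice, without overlap, and was the one whose call held without any 1 mouse. Leaving out each mouse in turn gave between 2 and 8 calls. For AL against LS over both runs 4 of 24 rose, beside 5.86% of all genes called higher: Slfn4 (3.54), Fpr1 (2.98), Chil3 (2.94) and Clec4d (2.28). Slfn4 kept that call without any 1 mouse, while Chil3 lost it in 11, Fpr1 in 9 and Clec4d in 3 of the 20 fits that left out 1 mouse. None of the lists' genes was called for LS against Ctrl in the first run by edgeR, beside 0.021% of all genes, or by DESeq2. In edgeR 6 of 22 had an unadjusted p under 0.05, as had 1174 of all 14289 genes.

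In the second run 12 of the 44 could be tested and none was called by edgeR, beside 0.128% of all genes. A gene could pass the filter of this run through its AL mice alone, as did Mmp8, which had no counts in any Ctrl mouse of the run. This can raise the counts of low p and of positive log2FC among the 12, and their median, so nothing is read from them. An unadjusted p under 0.05 was found for 9 of the 12, and for 1764 of all 12499 genes. DESeq2 called 5 of the 12 and 356 of all genes. Of the 12, 11 had a positive log2FC, beside 53.5% of all genes, and their median was 2.20. Without AL8, which leaves AL9 alone to vary like the Ctrl mice, 8 were called, and so were 1403 of all genes in place of 16. Hp, which encodes haptoglobin and is held in neutrophil granules as well as made by the liver, was 6.64 and 66.3 CPM in the AL mice and 0.598 to 1.38 CPM in the Ctrl mice. Mmp9, the gelatinase, was 2.02 and 18.4 CPM against 0.394 to 0.996 CPM. Cxcr2, the receptor for neutrophil attractants, was 1.29 and 1.66 CPM against 0.0769 to 0.199 CPM. None of the 3 overlapped, and both AL mice were above all Ctrl mice for 14.0% of all genes.

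Mmp8, the neutrophil collagenase, was the one of 18 tested genes of the lists called for the difference between the runs, beside 0.246% of all genes called higher (adjusted p = 0.0323, quasi-likelihood test of edgeR, Benjamini-Hochberg adjusted). It was 0 in all second-run Ctrl mice and 1.81 and 2.37 CPM in the AL mice, and 0.111 to 0.350 CPM in AL and 0.0415 to 1.04 CPM in Ctrl mice of the first run. The call was lost without 8 of the 16 mice in turn. Of the 18, 17 had a positive difference, beside 49.2% of all genes, with a median of 2.49, beside -0.01 over all genes. The 8 genes were chosen by such a difference in these same mice. The lists hold other genes of the same cell type, so nothing is read from these counts. Clec4d was the one of the 24 called lower in the second run than in the first, beside 10.3% of all genes (-1.97, adjusted p = 0.0243, edgeR's quasi-likelihood test), a call lost without AL8, Ctrl5, Ctrl6 or Ctrl7.

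**Figure D4:**
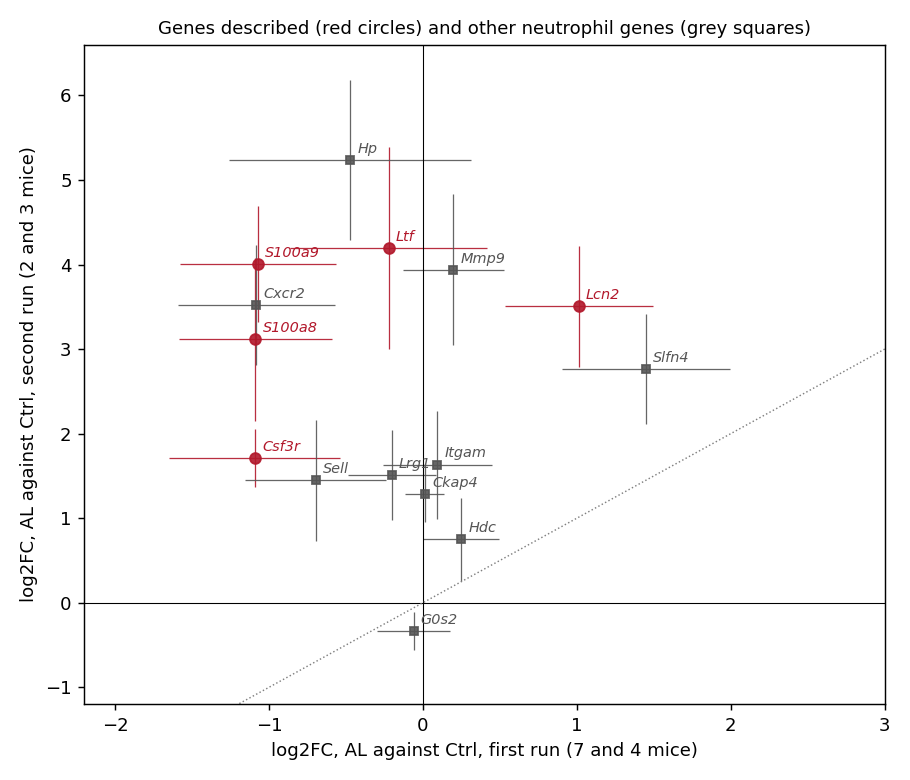
Log2FC of AL against Ctrl mice in the first run (horizontal) and in the second run (vertical), with bars of 1 SE, for 5 of the 8 genes (red circles) and 10 other neutrophil genes (grey squares) that had counts in both groups of both runs and were fitted in each. The dotted line marks equal values. All 5 and 9 of the 10 other genes lie above it. The 5 genes were chosen by this pattern. The other genes had to pass the second-run filter, which the AL mice alone could meet.

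Markers of the early granules were low. The 5 azurophil genes together were at most 1.33 CPM in any mouse, none passed the filter, and Mpo and Elane were at most 0.474 and 0.118 CPM. In the second run their sum was 0.172 and 0.711 CPM in AL and 0 to 0.0768 CPM in Ctrl mice, near the floor of that run. Ly6g, the gene of the antigen used to sort mouse neutrophils, was at most 0.172 CPM and at most 4 counts. Csf3, the ligand of Csf3r, had 1 count in 1 AL mouse and 0 in the other 19. Of the 11 attractant and adhesion genes tested, 1 rose in AL against Ctrl over both runs, beside 4.1% of all genes, namely Cxcl5 (1.43, adjusted p = 0.0388, edgeR's quasi-likelihood test). In AL against LS mice of the first run 3 of 11 rose, beside 7.94% of all genes, namely Cxcl5, Icam1 and Selp (2.02, 0.75 and 2.53). The call of Cxcl5 over both runs was lost without 8 of the 20 mice in turn and that of Selp without 9 of 15. None of the 5 genes of the phagocyte oxidase was called in these comparisons.

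The summed genes of red cells and of platelets were higher in the second-run AL than Ctrl mice, and those of lymphocytes were not. For single genes, both AL mice lay above all Ctrl mice of that run in 14.0% of all genes. Platelet genes varied, with a second-run log2FC of 0.03 ± 0.613 (SE) for Pf4 and 3.42 ± 0.656 for Gp9. The summed erythroid genes (7 of 8 listed were in the table) were 2750 and 3330 CPM in the second-run AL mice and 1310 to 2200 in the Ctrl mice, and the summed platelet genes (8 of 8) were 19.5 and 25.2 CPM against 5.71 to 10.1. The summed B cell genes were lower, at 1.07 and 1.29 CPM against 1.69 to 3.05, and the summed T and NK cell genes overlapped, at 2.01 and 4.30 CPM against 2.38 to 4.48. The erythroid sum of the first run was 896 to 12100 CPM in AL, 2860 to 7250 in LS and 4090 to 20500 in Ctrl mice, and it was highest in Ctrl2 and AL4, which were also high in the granule genes. Slc4a1, the anion exchanger of red cells, rose in AL against Ctrl mice of the second run (3.64, adjusted p = 0.0201, edgeR's quasi-likelihood test), with 7.48 and 8.06 CPM against 0.538 to 0.697 CPM, and was the one gene of any list called there. The call was lost without Ctrl5, Ctrl6 or Ctrl7. The part of blood left in the tissue in the levels of the 8 genes was not tested.

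Macrophage genes had a summed level of 112 and 525 CPM in AL and 157 to 238 CPM in Ctrl mice of the second run, which overlapped, and none of 10 was called there by edgeR, with 10 of 10 log2FC positive and 0 at an unadjusted p under 0.05. Of all 12499 genes tested there, 53.5% had a positive log2FC and 1764 an unadjusted p under 0.05 (edgeR's quasi-likelihood test). Monocyte genes were at 101 and 138 CPM in AL and 82.1 to 107 CPM in Ctrl mice. Epithelial genes were at 8.30 and 70.1 CPM in AL and 2.76 to 4.07 CPM in Ctrl mice, and Krt19, an epithelial keratin, rose in AL against Ctrl over both runs (1.83, adjusted p = 0.00829, edgeR's quasi-likelihood test). The part of these cells was not tested.

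The 10 genes most like the 8 across the mice were named by the highest Spearman's rho with the mean z-score of the 8, over 20 mice after centring each run, among genes whose mean was 1 CPM or more. They were Fbxo31 (0.839), Mta1 (0.802), B4galt1 (0.783), Atp9a (0.782), Plekhm2 (0.774), F5 (0.771), Slc4a3 (0.767), Stat3 (0.761), Slc4a1 (0.755) and Hic2 (0.743). B4galt1 is a galactosyltransferase, F5 is coagulation factor V, Stat3 is a transcription factor downstream of cytokine receptors and Slc4a3 is an anion exchanger of heart muscle. Slc4a1 was the one on any of the lists read here. Mta1 was 38.4 and 39.7 CPM in the second-run AL mice and 26.1 to 27.8 in the Ctrl mice, with 19.4 to 22.5, 18.3 to 21.7 and 20.9 to 23.4 CPM in AL, LS and Ctrl mice of the first run. The points share group and run, and the values are a description.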

How the data were processed

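Heart apex RNA of 20 mice was measured by stranded poly(A) RNA sequencing. The authors aligned reads to GRCm38 with STAR and quantified genes with Salmon within an nf-core workflow, using an Ensembl annotation, and deposited the estimated counts of 25308 genes, not normalized and not adjusted for run. Of the values, 14.2% were not whole, and all were rounded. Total counts were 43993277 to 62668146 per mouse in the first run and 7867642 to 11794615 in the second; low counts in the second run are therefore less precise. Groups, mouse numbers and runs came from the sample labels. Correlations between libraries were 0.893 to 0.98, and none were identical.

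With edgeR 4.0.16, filterByExpr at a minimum count of 10 kept 14477 genes; Camp failed it and was added, and in the second run Ngp, Camp and Ltf were added. TMM factors scaled the libraries, which were tested with glmQLFit and glmQLFTest in R 4.3.3, with Benjamini-Hochberg adjustment over all genes. A gene was called at an adjusted p under 0.05 with a log2FC of 0.58 or more in size. The fit over both runs held 3 groups and a run term, the first-run fit held 15 mice, the second-run fit 5, and the difference between the runs was an interaction term over 16 AL and Ctrl mice. Labels name each sample as 1 mouse, so p-values measure the spread between mice. The fits were checked on simulated counts. Alternatives were RLE factors, no filter, DESeq2 1.42.0, totals without TMM, a block for the replicate number, a covariate for Xist, no run term, ComBat-seq (sva 3.50.0) and leaving out each mouse.

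The 8 genes, the other gene lists and the tests were chosen with earlier results of these data known, so the 8 genes carry no p-value. Named genes are the 8, called genes of the other neutrophil lists, up to 4 called genes of each further list where they bear on the 8, and the 10 genes most like the 8. Intervals of counts are exact Poisson intervals at 95%. Gene coordinates are from GENCODE on GRCm38, and promoters, matched by symbol for all 8, are from RefSeq.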

Additional observations from a re-analysis of the deposited data

Results flagged for a closer look

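Single mice stood apart from their group for 6 of the 8 genes. The gap of the highest mouse to the next was larger than Dixon's critical value in 7 of 40 groups looked at. Groups over both runs share mice with those of the first run, and the 8 genes were chosen by their counts. No chance rate is therefore set beside this number, and the flags are a description. Among all 7 Ctrl mice, Ctrl4 had 10.8 CPM of S100a9 (next 4.16 CPM) and 2.01 CPM of Retnlg (next 0.608 CPM), and Ctrl2 had 6.75 CPM of Csf3r (next 2.59 CPM). Among all 9 AL mice, AL8 of the second run was highest in Ngp (2.13 CPM, next 0.731), Ltf (2.96 CPM, next 0.774) and Retnlg (4.03 CPM, next 1.46). High values of second-run AL mice chose the genes, so nothing is read from these flags of AL8. Among the 7 first-run AL mice, AL7 had 23.1 CPM of Lcn2 (next 6.71 CPM).

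The AL effect on Mmp8 differed between the runs by a log2FC of 10.4 in the interaction test. All second-run Ctrl mice were at 0, so the size of this value depends on the fit and is no bound.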

How the results depend on the processing

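No called result changed its direction. Of 2934 values of single genes under an alternative, 2675 kept direction and call, 214 lost the call and 45 moved by over 1 SD between mice. Among the 18 counts of called genes, RLE factors and totals without TMM moved none by over 1.5 times. With no filter, calls of the other neutrophil lists were 3 for the second against the first run (1 in the reported fit), 0 for AL against Ctrl in the first run (1) and 2 in the second (0), and calls of all genes for AL against Ctrl in the second run were 51 (16). With DESeq2, calls of these lists were 9 for AL against LS over both runs (4), 2 for AL against Ctrl in the first run, 5 in the second and 6 for the difference between the runs (1), and calls of all genes were 21 for LS against Ctrl over both runs and 15 in the first run (3 each), 356 for AL against Ctrl in the second run and 451 for the difference between the runs (98). With ComBat-seq, all genes called were 640 for AL against LS (1288) and 6 for LS against Ctrl. With Xist as a covariate, calls of the lists were 0 for AL against Ctrl in the first run. The causes were not tested.

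With the replicate number as a block, list calls were 0 for AL against Ctrl over both runs (3) and 0 in the first run, 1 for AL against LS over both runs and 1 in the first run (6), and 4 for the second against the first run. The numbers are not a pairing: over 12 same-numbered pairs of the first run the correlation of deviations lay between -0.154 and 0.231, 3 of 12 were over 0.1, and 4 of 12 mice correlated best with their own number.

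Leaving out each mouse in turn gave list calls of 1 to 4 for AL against Ctrl over both runs, 0 to 1 in the first run, 0 to 8 in the second and 0 to 7 for the difference between the runs, 1 to 5 for AL against LS over both runs and 2 to 8 in the first run, and 0 to 2 for the second against the first run. All-gene calls were 1 (without Ctrl6) to 1403 (without AL8) for AL against Ctrl in the second run, 39 (without AL9) to 1716 (without AL8) for the difference and 3 to 8 for LS against Ctrl in the first run. Without AL8 or AL9, the other is assumed to vary like the Ctrl mice. Depth limits Ngp, Camp and Ltf most: at 0.254 to 0.381 CPM, the floor of the second run is above the level of Camp in every mouse of either run.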
